A study of Mus musculus with 18 samples.

Results

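Collagen chain genes were examined in the transcriptomes of 3 mouse fat depots. Members were all rows whose gene symbol had the form Col, a number, a and a number, which gave 42 genes of the 45151 symbols listed for all 3 depots. The genes were sorted by type into 11 fibrillar chains, 6 basement membrane chains (all of type IV) and 25 others, namely 9 fibril-associated chains, 5 type VI chains, 4 transmembrane chains, 3 short chains, 2 multiplexins and 2 remaining chains. The libraries came from male wild type mice aged 16 weeks that ate regular chow, with the strain given as C57BL/6J in the protocol and as C57BL/6 in the sample labels. There were 6 libraries of inguinal white adipocytes (iWAT), 6 of epididymal white adipocytes (eWAT) and 6 of brown adipose tissue (BAT). No transgene, knockout or drug was part of any group. The labels do not say whether a library was made from 1 mouse or from a pool, so p-values measure the spread between these libraries.

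Collagens are triple helices of 3 chains, each encoded by its own gene. Fibrillar collagens (types I, III and V in soft tissues) form the cables that bear load, whereas type IV collagen forms the sheet-like network of basement membranes, and every adipocyte is wrapped in such a membrane. Type VI collagen makes beaded filaments that link the membrane to the fibrils and is abundant in fat, and multiplexins (types XV and XVIII) are basement membrane collagens that carry sugar chains, with endostatin as the cleaved end of type XVIII. Fibril-associated and transmembrane collagens are minor components that decorate fibrils or sit in the cell surface.

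The white and brown samples were prepared in different ways. White adipocytes were released with collagenase, an enzyme that cuts collagen protein, and skimmed off as floating cells. BAT was frozen as whole tissue with all of its cells, although a label calls it adipocytes. In each comparison with BAT, depot and preparation cannot be told apart. In whole tissue, moreover, fewer cells of a type and less RNA per cell cannot be told apart. The files also differ: a row is a gene with merged exons in iWAT and BAT (53445 rows) and a single transcript in eWAT (189660 rows), where the most-read transcript of each symbol was taken. Since 1 read can enter the count of more than 1 transcript and the kind of file follows the depot, counting and depot cannot be told apart in each comparison with eWAT. The kit was not stated to keep strand, so reads of overlapping genes on opposite strands cannot be separated. Reads behind each library numbered between 22929576 and 34512470.

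As a check of the labels, Adipoq, the adiponectin gene, had a mean level of 1993 ± 254 in iWAT, with 1789 ± 508 in eWAT and 325 ± 51.3 in BAT. Ucp1, the uncoupling protein of brown fat, was at 2.82 ± 1.92, 0.325 ± 0.165 and 1219 ± 189.5. Markers of fibroblasts and progenitors, endothelium, mural cells and macrophages were present in all depots. The summed level of 7 fibroblast and progenitor markers was 547 to 851 in iWAT, 151 to 259 in eWAT and 44.3 to 74.9 in BAT, but in the white depots this sum was mostly Dpt (mean 648 in iWAT and 18.004 in BAT). The other markers of the list were mixed. Pdgfra averaged 0.233 in iWAT, with 0.629 in eWAT and 1.72 in BAT, and Pi16 and Thy1 were also highest in BAT. Ly6a averaged 47.9, 39.9 and 29.0 and Cd34 averaged 8.71, 14.5 and 6.38 in the same order, and Dpp4 was highest in eWAT. The sum of 7 endothelial markers was 63.6 to 357 in iWAT, 143 to 324 in eWAT and 66.0 to 147 in BAT, and that of 6 mural cell markers was 41.5 to 142, 93.2 to 196 and 91.6 to 160. The sum of 7 macrophage markers was 33.3 to 172 in iWAT, 145 to 2049 in eWAT (highest in replicate 15) and 23.7 to 53.8 in BAT. A list of 10 genes that respond to tissue dissociation moved with the preparation and summed to 2989 to 4043 in iWAT, 2189 to 3007 in eWAT and 36.4 to 232 in BAT. Of 6 mesothelial markers, all but Lrrn4 were highest in eWAT, where Upk3b averaged 3.41, against 0.0133 in iWAT and 0.00266 in BAT. Lrrn4 was highest in BAT (66.3). Markers of skeletal muscle stood out in BAT replicate 12, and those of epididymis in eWAT replicates 14 and 15. The part of these cells and of dissociation in the collagen levels was not tested, and the calls that changed without these libraries are given with the genes.

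Levels are given as transcript-length RPKM, that is, reads per kilobase of the most-read eWAT transcript scaled to the reads of the library (the M of RPKM), with the same length used in every sample so that chains and depots can be set side by side. This scale was chosen after the data were seen. It differs from the deposited RPKM in iWAT and BAT, where the merged row can be much longer than the transcript (12146 bp against 5346 bp for Col1a2). A level is given as mean ± SD over 6 samples or as its range with the median. Depots were compared with edgeR on the read counts, and a difference is given as log2 fold change ± SE with a Benjamini-Hochberg adjusted p over all rows tested, called at 0.05. These fits scale the libraries by TMM, which assumes that most genes do not differ. Without TMM the median over all rows rose by 0.26 (iWAT against BAT) and by 0.33 (eWAT against BAT) on the log2 scale, and the share of calls that were higher in the white depot went from 50.3% to 65.8% and from 50.6% to 66.3%.

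Sequence before the transcription start is shown for 4 members, namely the pair with the largest white-fat excess (Col15a1 and Col18a1), the fibrillar chain with the largest excess in eWAT (Col5a3) and the chain with the largest excess in BAT (Col27a1). Each is 250 bases long, written 5′ to 3′ on the strand of the gene and taken from RefSeq on GRCm38.p6. Capitals mark matches on either strand to 4 short motifs, which do not overlap here. They are TATAAA, known from the box that places some starts, GGGCGG, known as a site of Sp family factors, CCAAT, known as a site of NF-Y, and AGGTCA, known as the core of many nuclear receptor sites.
Col15a1 (GRCm38.p6 chr4:47207762-47208011, plus strand): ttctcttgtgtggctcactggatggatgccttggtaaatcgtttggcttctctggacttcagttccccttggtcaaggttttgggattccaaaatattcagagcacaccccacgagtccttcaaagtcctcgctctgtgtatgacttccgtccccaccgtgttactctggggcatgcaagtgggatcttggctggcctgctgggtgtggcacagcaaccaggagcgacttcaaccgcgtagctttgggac
Col18a1 (GRCm38.p6 chr10:77113706-77113955, minus strand): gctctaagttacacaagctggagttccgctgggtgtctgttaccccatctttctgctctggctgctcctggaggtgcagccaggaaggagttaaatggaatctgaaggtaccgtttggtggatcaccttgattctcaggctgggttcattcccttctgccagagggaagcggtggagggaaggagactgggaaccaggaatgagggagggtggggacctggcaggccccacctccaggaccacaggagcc
Col5a3 (GRCm38.p6 chr9:20815068-20815317, minus strand): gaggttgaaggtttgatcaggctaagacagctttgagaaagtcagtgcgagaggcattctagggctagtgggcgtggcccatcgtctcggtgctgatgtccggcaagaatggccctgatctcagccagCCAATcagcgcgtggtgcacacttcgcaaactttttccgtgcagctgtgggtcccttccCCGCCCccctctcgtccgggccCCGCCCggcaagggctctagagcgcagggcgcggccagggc
Col27a1 (GRCm38.p6 chr4:63215162-63215411, plus strand): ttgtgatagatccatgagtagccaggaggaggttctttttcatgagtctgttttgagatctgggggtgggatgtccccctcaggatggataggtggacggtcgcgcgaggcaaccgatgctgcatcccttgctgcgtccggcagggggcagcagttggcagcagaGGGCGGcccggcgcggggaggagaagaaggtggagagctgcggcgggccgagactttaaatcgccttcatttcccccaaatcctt
For Col18a1 the downstream of its 2 RefSeq starts is shown, since the most-read eWAT transcript began near there. Col5a3 held 2 matches to GGGCGG and 1 to CCAAT, and Col27a1 held 1 match to GGGCGG, whereas no listed letters were found in the windows of Col15a1 and Col18a1. Of the 42 members 34 were in the RefSeq table, with 37 promoters in all. GGGCGG was found in 21 of the 37 (32.7% of all 32851 promoters in the table), CCAAT in 13 (33.8% of all), AGGTCA in 7 (4607 of all 32851) and TATAAA in 5 (12.4% of all), the last being Col3a1, Col10a1, Col11a2, Col13a1 and Col17a1. The type IV genes lie in head-to-head pairs. In mm9, the build of the deposited files, the merged rows of Col4a1 and Col4a2 overlapped by 22 bases on chromosome 8, and those of Col4a4 (minus strand) and Col4a3 (plus strand) were 71 bases apart. This gap is shown on the plus strand because both genes were lower in iWAT than in BAT, and it held none of the listed letters.
Gap between Col4a4 and Col4a3 (mm9 chr1:82583425-82583495, plus strand): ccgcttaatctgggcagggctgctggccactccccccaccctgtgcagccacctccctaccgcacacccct

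Of the collagen types, type IV had the highest summed level in every depot on the mean. The summed level of all 42 genes was 624 ± 72.0 in iWAT, with 695 ± 82.1 in eWAT and 149 ± 22.5 in BAT. Its range was 551 to 744 in iWAT, 629 to 851 in eWAT and 117 to 182 in BAT, so that both white depots lay above BAT in every sample. Col4a1 and Col4a2, the chains of the common type IV collagen, together gave 37.9 ± 2.63% of the sum in iWAT, with 35.2 ± 2.74% in eWAT and 39.6 ± 2.91% in BAT. These shares overlapped between the depots. On the deposited RPKM, 13 members had a mean of at least 1 in iWAT, with 15 in eWAT and 14 in BAT. The deposited RPKM summed over fibrillar chains was 132 ± 19.8 in iWAT, with 166 ± 33.9 in eWAT and 34.1 ± 4.88 in BAT. Over basement membrane chains it was 219 ± 32.4, 245 ± 29.5 and 55.4 ± 11.7, and over the others 149 ± 23.1, 284 ± 39.1 and 25.98 ± 2.74 in turn. With 1 length in every sample the fibrillar sum became 182 ± 28.5 in iWAT and 52.6 ± 7.23 in BAT, and the order of iWAT and eWAT turned.

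In the comparison of iWAT with BAT, 28 of the 42 members had enough reads to be tested (at least 10 reads in at least 6 samples). Of these 14 were higher in iWAT, 11 were lower and 3 were not called. Calls were common over the whole table too: 67.6% of the 19733 rows tested were called, 34.0% higher and 33.6% lower in iWAT, beside 89.3% of the members tested. The median log2 fold change was 0.71 over the members and 0.01 over all rows. By class, 5 of 8 fibrillar chains were higher and 2 lower, 2 of 5 type IV chains were higher and 3 lower, and 7 of 15 other chains were higher and 6 lower. Of the 11 lower members, 6 met the read minimum through BAT alone (Col4a3, Col4a4, Col4a5, Col7a1, Col11a2 and Col13a1). A gene that enters the test only through the depot where it is high had to differ, so these 6 calls are a description and the counts of lower members are no support for a direction. The 14 higher members met the minimum without BAT.

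In the comparison of eWAT with BAT, 29 members were tested, 17 were higher in eWAT, 8 were lower and 4 were not called. Over all 18383 symbols 70.3% were called (35.6% higher and 34.7% lower), beside 86.2% of the members tested. The median log2 fold change was 0.92 over the members and 0.03 over all symbols. Of the called members Col7a1, Col11a2 and Col13a1 (lower) met the read minimum through BAT alone and Col4a6 (higher) through eWAT alone. Here 6 of 8 fibrillar chains were higher and 2 lower, 3 of 6 type IV chains were higher and 2 lower, and 8 of 15 other chains were higher and 4 lower. These comparisons share the BAT samples, so their values are not independent of each other.

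**Figure D1:**
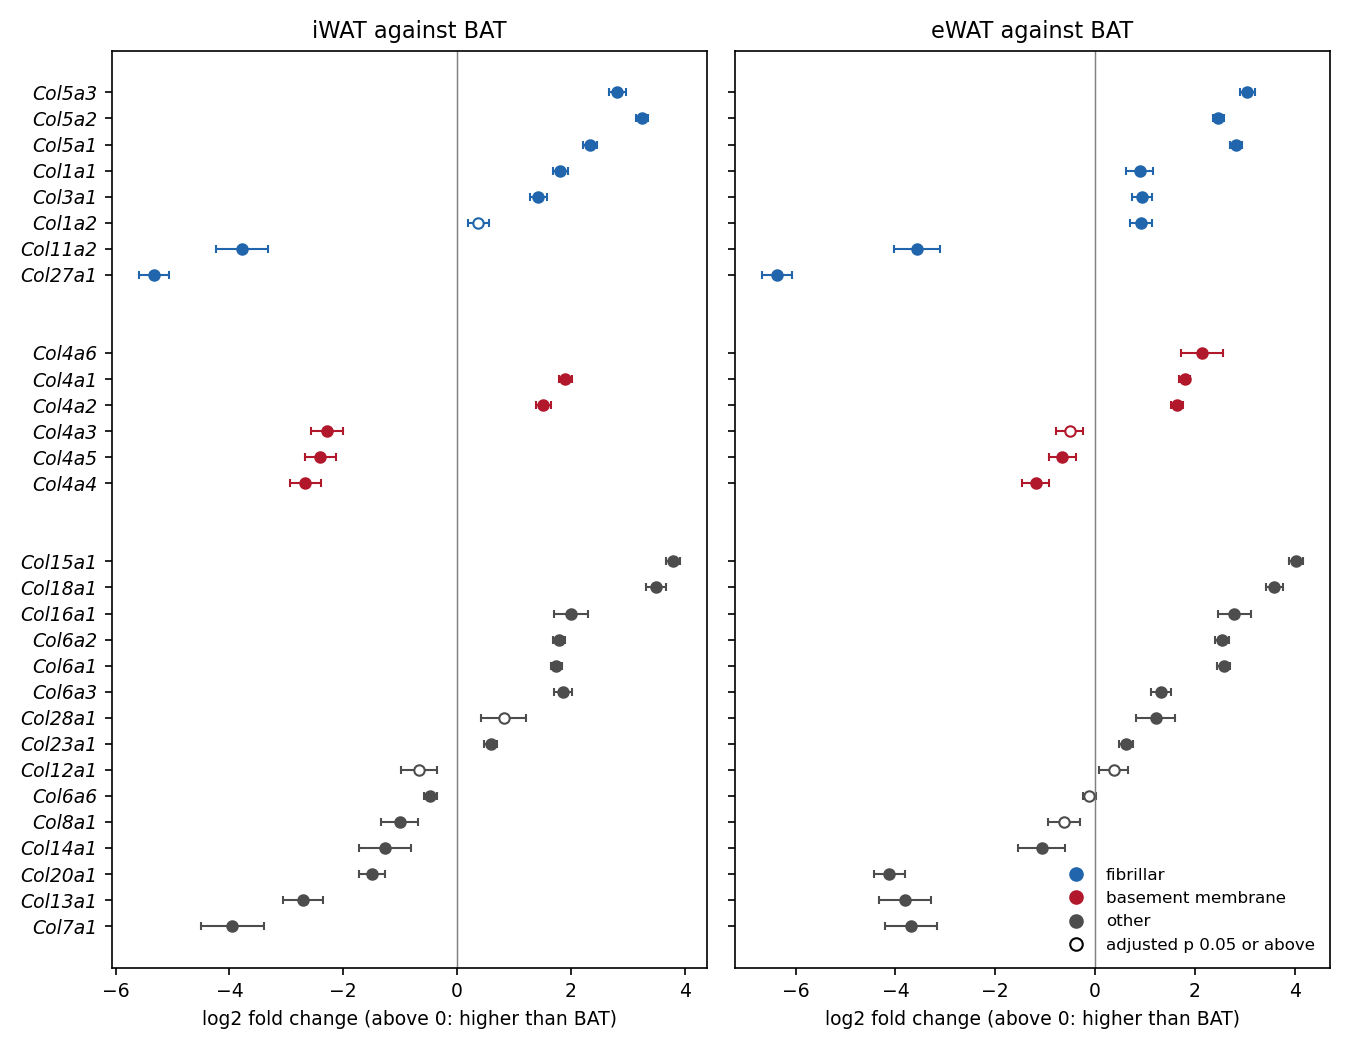
Log2 fold change of each tested collagen chain gene in iWAT (left) and eWAT (right) against BAT, by class. Points are edgeR estimates, bars are standard errors, and open points had an adjusted p of 0.05 or above. Col15a1, at 3.80 and 4.02, is the topmost of the other chains, and Col27a1, at -5.32 and -6.37, is the lowest fibrillar chain in both panels.

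Among fibrillar chains, Col1a1 and the chains of types III and V were higher in both white depots than in BAT, whereas Col1a2 was called in eWAT alone. The largest differences among the chains of types I, III and V were those of type V. Type V collagen sits inside type I fibrils and sets their number and width, and Col5a3 encodes one of its chains. The level of Col5a3 (mm9 chr9:20574494-20619511, minus strand) was 28.5 to 49.3 (median 37.1) in iWAT, 35.6 to 52.9 (median 48.96) in eWAT and 2.92 to 5.49 (median 4.59) in BAT. No BAT sample reached a white one, and the log2 fold change was 2.82 ± 0.15, adjusted p = 1e-09 for iWAT and 3.05 ± 0.15, adjusted p = 2.8e-12 for eWAT against BAT. Its partner chain Col5a2 (mm9 chr1:45431166-45560127, minus strand) was at 17.2 to 24.2 (median 21.6) in iWAT, 11.5 to 16.6 (median 11.98) in eWAT and 1.51 to 2.11 (median 1.92) in BAT, and the 3 depots did not overlap on this scale. On the deposited RPKM iWAT (11.9 to 16.7) and eWAT (11.5 to 16.6) overlapped almost fully. The difference from BAT was 3.25 ± 0.11, adjusted p = 2.2e-11 in iWAT and 2.47 ± 0.11, adjusted p = 1.2e-12 in eWAT. Col5a1, the remaining type V chain, averaged 11.02 ± 1.74, 16.1 ± 1.86 and 1.83 ± 0.357 in iWAT, eWAT and BAT, with log2 fold changes of 2.33 ± 0.12 and 2.82 ± 0.12 against BAT, both called.

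Col3a1, the sole chain of type III collagen, was the most abundant fibrillar transcript in every depot on the mean. Its level (mm9 chr1:45368383-45406697, plus strand) was 49.97 to 92.1 (median 63.7) in iWAT, 30.4 to 74.2 (median 48.8) in eWAT and 15.2 to 23.4 (median 21.1) in BAT. BAT lay below both white depots in every sample, with a log2 fold change of 1.43 ± 0.15, adjusted p = 1.3e-06 in iWAT and of 0.93 ± 0.20, adjusted p = 0.00047 in eWAT. Col1a1 and Col1a2 encode the chains of type I collagen, the main fibril protein. Col1a1 (mm9 chr11:94797569-94814356, plus strand) was at 22.5 to 36.3 (median 28.3) in iWAT, 7.22 to 31.1 (median 13.4) in eWAT and 4.67 to 8.13 (median 6.84) in BAT. The eWAT range was the widest and overlapped with both other depots, with replicate 15 highest and replicate 14 lowest. The log2 fold change was 1.82 ± 0.13, adjusted p = 2.6e-08 for iWAT and 0.89 ± 0.28, adjusted p = 0.0079 for eWAT against BAT. The eWAT row of Col1a1 begins at base 94801432 and leaves out the first exons of the merged row. With the reads of a row that covers them added, which counts shared exons again, the eWAT difference from BAT was 1.30. Col1a2 averaged 17.4 ± 5.29, 26.6 ± 8.97 and 11.2 ± 1.52, and its log2 fold change against BAT was 0.38 ± 0.18, adjusted p = 0.076 in iWAT, which did not pass, and 0.92 ± 0.22, adjusted p = 0.0013 in eWAT. The iWAT value of Col1a2 passed without TMM (0.63) and without iWAT replicate 14 (0.45) or 15 (0.50).

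Col27a1 went against the fibrillar chains named above. It encodes type XXVII collagen, a fibrillar chain best known from cartilage. The level (mm9 chr4:62875038-62996025, plus strand) was 3.76 to 8.18 (median 5.19) in BAT, 0.0812 to 0.240 (median 0.168) in iWAT and 0.0394 to 0.104 (median 0.0964) in eWAT. Every BAT sample lay far above every white one. Reads per library numbered 891 to 1907 in BAT, 15 to 53 in iWAT and 8 to 26 in eWAT. The log2 fold change was -5.32 ± 0.26, adjusted p = 5.9e-10 in iWAT and -6.37 ± 0.31, adjusted p = 2.2e-12 in eWAT against BAT. Col11a2, a type XI chain also known from cartilage, had a much lower level and met the read minimum through BAT alone in both comparisons, with 0.343 ± 0.232 in BAT, 0.0291 ± 0.0176 in iWAT and 0.0339 ± 0.0209 in eWAT, and log2 fold changes of -3.78 ± 0.46 and -3.57 ± 0.47, both called.

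The basement membrane chains split into an abundant pair and 4 scarce chains. Col4a1 (mm9 chr8:11198423-11312826, minus strand) was the most abundant collagen transcript in every depot, at 127 to 179 (median 141) in iWAT, 126 to 174 (median 138) in eWAT and 25.4 to 43.9 (median 32.6) in BAT. Col4a2 (mm9 chr8:11312805-11449287, plus strand) was at 65.1 to 111 (median 90.6), 90.7 to 127 (median 97.8) and 20.3 to 36.3 (median 25.3) in the same order. For both genes the white depots overlapped with each other and BAT lay apart. The log2 fold change of Col4a1 was 1.90 ± 0.12, adjusted p = 4.7e-09 in iWAT and 1.80 ± 0.11, adjusted p = 5.9e-11 in eWAT, and that of Col4a2 was 1.52 ± 0.14 and 1.64 ± 0.13, both called.

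Col4a3, Col4a4 and Col4a5 build the type IV network of kidney and lung, and Col4a6 joins Col4a5 in skin and smooth muscle. Their highest level in any sample was 0.555. Col4a5 (mm9 chrX:137909928-138123778, plus strand) was at 0.271 to 0.555 (median 0.398) in BAT, 0.217 to 0.511 (median 0.296) in eWAT and 0.0476 to 0.174 (median 0.0793) in iWAT, where reads numbered 8 to 26 per library. The iWAT samples all lay below the other depots, whereas eWAT and BAT overlapped. The log2 fold change was -2.40 ± 0.28, adjusted p = 3.2e-06 in iWAT and -0.66 ± 0.27, adjusted p = 0.037 in eWAT against BAT. The eWAT call was lost without BAT replicate 6, 7 or 13 or without eWAT replicate 8, 11, 13 or 14 (-0.67 to -0.56), without TMM (-0.34) and without the read minimum (-0.61). When all eWAT rows of a symbol were summed it turned to 0.31. The head-to-head pair Col4a3 and Col4a4, whose 71-base gap is printed above, averaged 0.0336 (Col4a3) and 0.0386 (Col4a4) in iWAT. In the same order their means were 0.123 and 0.113 in eWAT, against 0.139 and 0.207 in BAT. Both were lower in iWAT than in BAT (-2.29 ± 0.28 and -2.67 ± 0.27), and like Col4a5 they met the read minimum of that comparison through BAT alone. In eWAT Col4a4 was lower than in BAT (-1.19 ± 0.27, adjusted p = 0.00062) and Col4a3 was not called (-0.51 ± 0.27, adjusted p = 0.10), though it passed without eWAT replicate 8 (-0.71). Col4a3 was also called with the row length in the offset (-0.70) and with summed rows (-0.80). Col4a6 was highest in eWAT, with 14 to 31 reads per eWAT library, 1 to 7 per BAT library and 0 to 2 per iWAT library. It was tested only in the fits over all 18 samples, with log2 fold changes of 2.14 ± 0.42, adjusted p = 0.00020 for eWAT against BAT and -4.57 ± 0.55, adjusted p = 9.7e-06 for iWAT against eWAT. The latter rests on 4 reads in all 6 iWAT libraries, and Col4a6 met the read minimum through eWAT alone, so both values are a description.

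**Figure D2:**
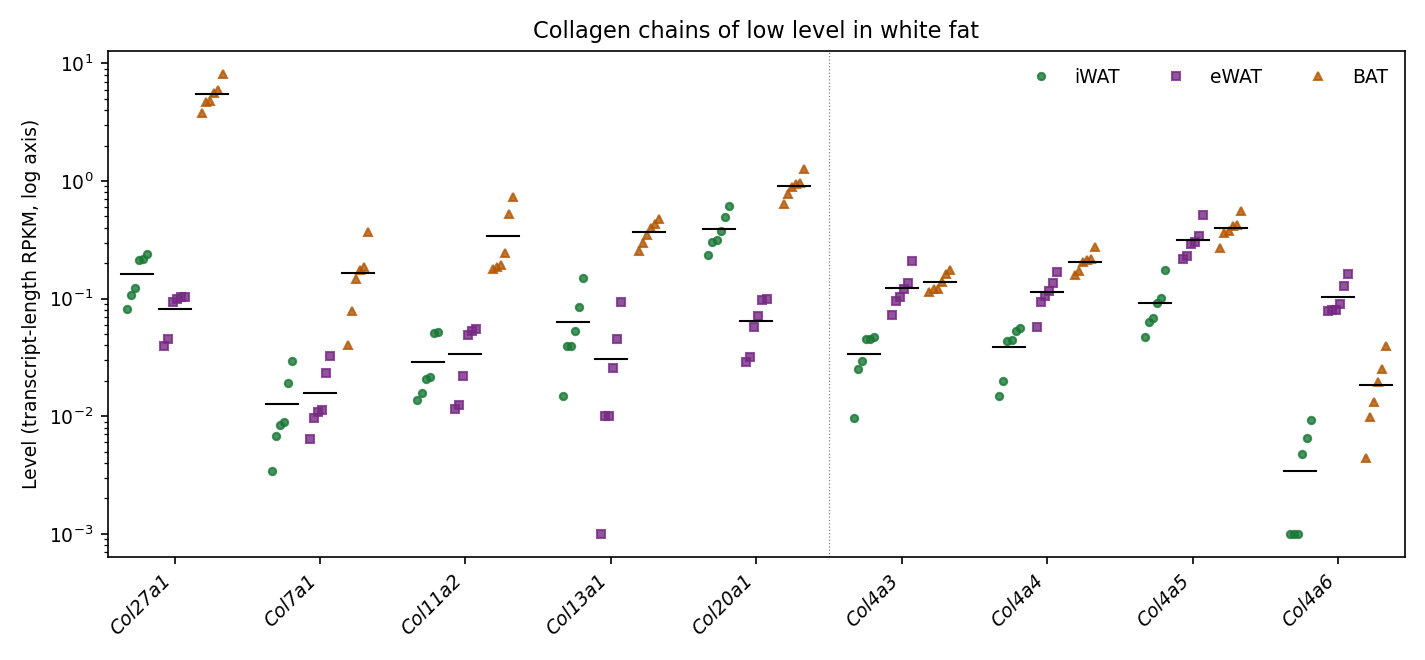
Level of 9 collagen chain genes of low level in white fat, as transcript-length RPKM on a log axis, by depot. Each point is 1 sample, black bars are means of 6 samples, and samples with 0 reads (Col13a1 in 1 eWAT sample and Col4a6 in 3 iWAT samples) are drawn at 0.001. Col27a1 lies between 3.76 and 8.18 in BAT and at 0.240 or less in every white sample, and the 4 minor type IV chains stand to the right of the dotted line.

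The multiplexins showed the largest excess in white fat. Col15a1 (mm9 chr4:47220884-47326039, plus strand) encodes a proteoglycan that anchors basement membranes to fibrils. Its level was 64.7 to 100.4 (median 76.6) in iWAT, 64.9 to 112 (median 98.9) in eWAT and 4.04 to 5.77 (median 4.46) in BAT. The log2 fold change was 3.80 ± 0.13, adjusted p = 2.4e-11 in iWAT and 4.02 ± 0.14, adjusted p = 4e-14 in eWAT, the largest positive value among the members in both comparisons. Col18a1 (mm9 chr10:76514923-76629293, minus strand), the source of endostatin, was at 17.5 to 28.9 (median 22.1), 18.4 to 30.9 (median 25.3) and 1.06 to 2.25 (median 1.57) in iWAT, eWAT and BAT. Its log2 fold change was 3.49 ± 0.18, adjusted p = 7.1e-10 in iWAT and 3.59 ± 0.17, adjusted p = 1.7e-12 in eWAT. For both genes the white depots overlapped and no BAT sample came near them. In eWAT, where transcripts are listed singly, the most-read Col18a1 row ran from the downstream start with 25.4 ± 4.22 RPKM and a RefSeq row from the upstream start had 21.8 ± 3.70, but they share most exons and reads, so the use of the starts cannot be read from these rows. The merged row of Col18a1 overlaps Slc19a1 on the other strand.

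Col6a1, Col6a2 and Col6a3 form the common type VI filament, and all 3 were higher in white adipocytes. Col6a1 (mm9 chr10:76171537-76188913, minus strand) was at 29.8 to 46.9 (median 36.3) in iWAT, 54.3 to 86.02 (median 67.1) in eWAT and 7.86 to 10.6 (median 8.99) in BAT. Col6a2 (mm9 chr10:76058501-76086375, minus strand) was at 31.5 to 50.9 (median 42.1), 53.1 to 98.3 (median 73.4) and 7.95 to 12.01 (median 9.81). The 3 depots did not overlap for either gene, with eWAT highest. Against BAT the log2 fold change was 1.75 ± 0.10, adjusted p = 3e-09 in iWAT and 2.57 ± 0.12, adjusted p = 2.4e-12 in eWAT for Col6a1, and 1.79 ± 0.11 and 2.54 ± 0.15 for Col6a2, both called. Col6a3, whose cleaved end is the signal protein endotrophin, averaged 19.1 ± 6.08, 13.7 ± 4.19 and 4.35 ± 0.312, with 1.86 ± 0.16 and 1.32 ± 0.19, both called. Here iWAT and eWAT overlapped. Col6a6 averaged 0.727 in iWAT, 0.963 in eWAT and 0.838 in BAT, but its most-read eWAT row, which sets the length, holds 8 of 41 exons. On the deposited RPKM it was at 0.312 in iWAT and 0.359 in BAT. Col6a6 was lower in iWAT than in BAT (-0.47 ± 0.12, adjusted p = 0.0036), where both depots have merged rows. The gene overlaps Pik3r4 on the other strand, so this value is uncertain, and the call was lost without TMM (-0.20).

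Of the fibril-associated chains, Col16a1 was higher in white adipocytes, at 0.798 ± 0.343 in iWAT, with 1.43 ± 0.554 in eWAT and 0.165 ± 0.0653 in BAT (2.01 ± 0.30 and 2.79 ± 0.33, both called). Col20a1 went the other way and separated all 3 depots, with 0.644 to 1.27 in BAT, 0.233 to 0.615 in iWAT and 0.0291 to 0.0987 in eWAT. Its log2 fold change was -1.50 ± 0.23, adjusted p = 4.6e-05 in iWAT and -4.12 ± 0.31, adjusted p = 1.1e-09 in eWAT against BAT. Col14a1, found where collagen fibrils are dense, was at 0.266 ± 0.224, 0.313 ± 0.176 and 0.531 ± 0.177, with calls of -1.26 ± 0.46, adjusted p = 0.025 and -1.07 ± 0.47, adjusted p = 0.048. The iWAT call of Col14a1 was lost without BAT replicate 13 or iWAT replicate 13 or 15, the eWAT call was lost without BAT replicate 6, 8, 11 or 13 or any eWAT replicate other than 15, and both were lost without TMM. Col12a1, a chain of tendon and stressed tissue, was not called against BAT in either white depot (-0.67 ± 0.32, adjusted p = 0.078, and 0.37 ± 0.30, adjusted p = 0.27), though the iWAT value passed without BAT replicate 7 (-0.81) or iWAT replicate 12 (-0.94), and the eWAT value passed without TMM (0.71) and with summed rows (0.85).

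The remaining chains were scarce. Col7a1, the anchoring fibril chain of skin, averaged 0.0127 in iWAT, with 0.0157 in eWAT and 0.166 in BAT (-3.95 ± 0.56 and -3.68 ± 0.52, both called), with 11 to 104 reads per BAT library and 8 or fewer in each white one. Col13a1, a transmembrane collagen of cell adhesion sites, averaged 0.0637, 0.0307 and 0.368 (-2.71 ± 0.35 and -3.82 ± 0.52, both called). Both genes met the read minimum through BAT alone, so these calls are a description. Col23a1, another transmembrane collagen, was higher in white adipocytes, at 0.934 ± 0.122, 0.993 ± 0.172 and 0.516 ± 0.0833 (0.59 ± 0.12 and 0.62 ± 0.13, both called), but the eWAT value went to -0.016 when all rows of the symbol were summed and was not called (0.24) with the row length in the offset. Col8a1, a short chain of vessel walls, was lower in iWAT than in BAT (-1.002 ± 0.33, adjusted p = 0.014), a call lost without TMM (-0.75), and not called in eWAT (-0.62 ± 0.33, adjusted p = 0.099). With summed rows the eWAT value of Col8a1 was called lower (-1.37). Col28a1, a chain first found around glia of peripheral nerves, was called higher in eWAT (1.21 ± 0.39, adjusted p = 0.0097), a call lost with summed rows (0.80), and not in iWAT (0.82 ± 0.40, adjusted p = 0.083), where it passed without TMM (1.06) and without BAT replicate 11 (1.09) or iWAT replicate 15 (0.98). The other 13 members had too few reads for a test with 1 row per gene. Of these Col6a4 and Col9a1 had no read in BAT and Col9a2 none in eWAT, and the highest level any of them reached was 0.135, by Col17a1 in 1 iWAT sample.

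Chains that are built into 1 trimer were then compared as ratios of their levels within each sample, which do not depend on library size or TMM. The ratio of Col6a1 to Col6a2 was 0.755 to 0.981 in iWAT, 0.875 to 1.07 in eWAT and 0.864 to 0.989 in BAT. This ratio lay near 1 in all depots while the levels differed, but only with 1 length in every sample. On the deposited RPKM it was 1.60 to 2.09 in iWAT and 1.84 to 2.102 in BAT, so iWAT and BAT still overlapped and eWAT lay apart. The ratio of Col4a1 to Col4a2 was 1.47 to 1.95 in iWAT, 1.31 to 1.51 in eWAT and 1.20 to 1.31 in BAT, with iWAT above BAT in every sample.

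By contrast, 3 ratios set iWAT and eWAT apart. Col1a1 to Col1a2 was 1.22 to 2.74 in iWAT, 0.416 to 0.807 in eWAT and 0.547 to 0.688 in BAT, so that iWAT did not overlap with the other depots. iWAT and BAT have the same kind of row, and on the deposited RPKM their ratios were 2.13 to 4.79 and 0.956 to 1.20. With the upstream row of Col1a1 added the eWAT ratio was 0.540 to 1.07, still below iWAT. Col5a1 to Col5a2 was 0.441 to 0.607 in iWAT, 1.08 to 1.47 in eWAT and 0.847 to 1.19 in BAT. Col6a3 to Col6a1 was 0.336 to 0.802 in iWAT, 0.124 to 0.317 in eWAT and 0.424 to 0.514 in BAT. In these 2 ratios eWAT did not overlap with iWAT, though its rows are counted in another way. On the deposited RPKM Col6a3 to Col6a1 did overlap (0.312 to 0.745 in iWAT and 0.124 to 0.317 in eWAT), whereas Col5a1 to Col5a2 did not. With summed rows the log2 fold changes of iWAT against eWAT turned for both Col5a1 (0.16) and Col5a2 (-0.49). That of Col6a3 turned as well (-0.86). Neither of the 2 ratios was computed on summed rows, so both splits rest on the choice of eWAT row. Col15a1 to Col18a1, a pair from separate collagen types and not from 1 trimer, was 2.85 to 4.06, 3.44 to 4.03 and 1.95 to 3.80, and the depots overlapped. On the deposited RPKM eWAT (3.44 to 4.03) lay above iWAT (2.22 to 3.16).

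**Figure D3:**
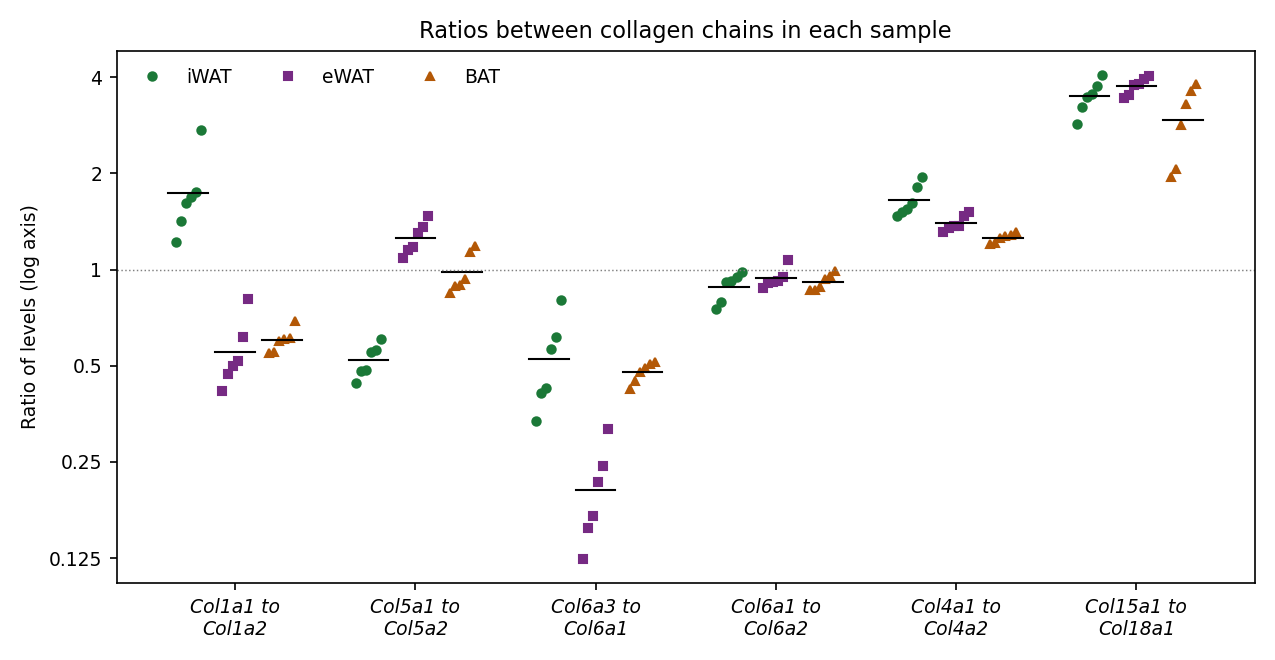
Ratio of the levels (transcript-length RPKM) of chain pairs in each sample, by depot, on a log axis, with black bars for the means of 6 samples. The ratio of Col6a1 to Col6a2 is between 0.755 and 1.07 in all 18 samples on this scale (1.60 to 2.102 in iWAT and BAT on the deposited RPKM), whereas that of Col1a1 to Col1a2 is 1.22 or more in every iWAT sample and 0.807 or less in every eWAT and BAT sample.

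The white depots differed less from each other. In the comparison of iWAT with eWAT, 13 of the 29 members tested were called, 4 higher and 9 lower in iWAT (44.8%, beside 25.6% of all 18383 symbols, 13.4% higher and 12.3% lower). By class, 3 of 8 fibrillar chains were higher in iWAT and 1 lower, 4 of 6 type IV chains were lower (1 of them, Col4a6, tested through eWAT alone), and 1 of 15 other chains was higher and 4 were lower. The median log2 fold change was -0.28 over the members and 0.00 over all symbols. With all eWAT rows of a symbol summed, 31 members were tested and 22 were called, 5 higher and 17 lower. The count for eWAT against BAT was 25 either way, but not of the same members. Among the members tested either way, Col4a3 (-0.80), Col8a1 (-1.37) and Col12a1 (0.85) came to be called there, and the calls of Col4a5, Col14a1, Col23a1 and Col28a1 were lost.

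Higher in iWAT were Col5a2 (0.73 ± 0.11, adjusted p = 7.7e-05), Col1a1 (0.88 ± 0.28, adjusted p = 0.026), Col27a1 (1.002 ± 0.30, adjusted p = 0.019) and Col20a1 (2.58 ± 0.31, adjusted p = 9.1e-06). With summed rows Col5a2 turned to -0.49 and was called (adjusted p = 0.00047), and with limma on the deposited RPKM it was not called (0.17 to 0.18). The Col1a1 call was lost with the upstream row added (0.47) and without eWAT replicate 8 (0.74) or iWAT replicate 7 (0.78), and the Col27a1 call was lost with limma (0.019 to 0.11), with the row length in the offset (0.66) and without iWAT replicate 11 (0.85) or eWAT replicates 14 and 15 (0.94). Lower in iWAT were Col6a1 (-0.88 ± 0.12, adjusted p = 3.5e-05) and Col6a2 (-0.80 ± 0.14, adjusted p = 0.00046), and also Col5a1 (-0.53 ± 0.11, adjusted p = 0.0023), which turned to 0.16 with summed rows and was not called with the row length in the offset (-0.16). Col12a1 was at 0.332 to 1.47 (median 0.636) in iWAT, 0.906 to 2.17 (median 1.56) in eWAT and 0.583 to 1.48 (median 0.873) in BAT. The ranges overlapped, and iWAT was lower than eWAT by the test (-1.09 ± 0.30, adjusted p = 0.012). Col4a3, Col4a4, Col4a5 and Col4a6 were lower in iWAT (-1.83, -1.52, -1.79 and -4.57), and Col6a6 was too (-0.40, lost without iWAT replicate 11 or 15 or eWAT replicate 11 or 15). Without eWAT replicate 15, the library with the highest macrophage markers, Col3a1 (0.61), Col15a1 (-0.35) and Col13a1 (1.82) passed the test, and so did Col8a1 in eWAT against BAT (-0.84). Without both eWAT replicates 14 and 15, Col15a1 (-0.34) and Col13a1 (1.95) passed between the white depots, and the Col6a6 call was lost (-0.33). In the comparison of the white depots Col15a1 (-0.27 ± 0.12, adjusted p = 0.12 with all libraries) passed also without iWAT replicate 15, and Col8a1 passed without iWAT replicate 14 (-0.83). With all libraries Col15a1 was called lower in iWAT with summed rows (-1.18), with the row length in the offset (-0.36) and with limma (-0.79 to -0.78). Col18a1 was called lower in iWAT with summed rows (-0.42) but not with the row length in the offset (0.12). Col7a1 (in both comparisons with BAT) and Col11a2 (in that with iWAT) reached 10 reads in the 6 BAT libraries and in no other library of those fits. They therefore went untested whichever BAT library was left out. Without BAT replicate 12, the library with muscle transcripts, no call of another member against BAT changed. The members with the highest levels, Col4a1 (0.06 ± 0.11, adjusted p = 0.73) and Col4a2 (-0.17 ± 0.12, adjusted p = 0.35), were not called, though Col4a1 was called higher in iWAT with the row length in the offset (0.33). Col16a1 (-0.83 ± 0.30, adjusted p = 0.051), Col1a2 (-0.59 ± 0.22, adjusted p = 0.058) and Col6a3 (0.49 ± 0.19, adjusted p = 0.065) missed the threshold and passed without some single libraries, namely eWAT replicate 7 or iWAT replicate 12 or 13 for Col16a1, eWAT replicate 8 or 14 or iWAT replicate 7 for Col1a2, and eWAT replicate 13 or iWAT replicate 13 or 14 for Col6a3. With summed rows Col6a3 turned to -0.86 and was called (adjusted p = 0.00054), and Col1a2 (-2.25) and Col16a1 (-1.95) were called lower in iWAT. With the row length in the offset (0.71) and with DESeq2 (0.50), however, Col6a3 was called higher in iWAT. In the same order, these settings called Col1a2 (-1.35 and -0.59) and Col16a1 (-0.80 and -0.82) lower in iWAT.

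The genes that fold, cut, link and bind collagen were then counted. Their counts stand beside the shares of all rows given above, which for calls in either direction were 67.6% (iWAT against BAT), 70.3% (eWAT against BAT) and 25.6% (iWAT against eWAT), with 34.0%, 35.6% and 13.4% higher. The median log2 fold change of a list stands beside that of all rows, which was 0.01, 0.03 and 0.00. Of 16 tested genes for collagen folding and modification, 9 were higher and 3 lower in iWAT than in BAT (median 0.51), and 8 were higher and 2 lower in eWAT (median 0.44), so the share called was near that of all rows. P4hb, a subunit of the prolyl hydroxylase that stabilises the helix, averaged 84.0 ± 6.64 in iWAT, with 99.8 ± 14.1 in eWAT and 15.8 ± 1.56 in BAT (2.15 ± 0.08 and 2.34 ± 0.10, both called). Serpinh1, the collagen chaperone HSP47, averaged 145 ± 27.0, 169 ± 28.9 and 65.1 ± 13.4 (0.90 ± 0.14 and 1.06 ± 0.14, both called). Between the white depots 4 were lower in iWAT and 12 were not called (median -0.21). The foldase gene Fkbp10 was among the lower (-1.20 ± 0.34, adjusted p = 0.014).

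Of 14 genes for propeptide removal and cross-linking, 7 were higher and 4 lower in iWAT than in BAT (median 0.60), and 9 were higher and 3 lower in eWAT (median 0.88). Sparc, a collagen-binding protein of basement membranes, averaged 1700.3 ± 427 in iWAT, with 1536 ± 268 in eWAT and 215 ± 19.9 in BAT (2.72 ± 0.16 and 2.51 ± 0.16, both called). Adamts2, which trims procollagen, had log2 fold changes of 3.36 ± 0.16 and 3.15 ± 0.15, and Tgm2, a cross-linking enzyme, of 0.57 ± 0.08 and 0.55 ± 0.08, all called. Between the white depots 3 were higher in iWAT and 5 lower (median -0.20). Pcolce, the enhancer of procollagen cleavage, was higher in iWAT than in eWAT (1.65 ± 0.29, adjusted p = 0.00046).

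Of 14 basement membrane partners tested in iWAT, 10 were higher and 3 lower than in BAT (median 1.11), and of 15 in eWAT, 9 were higher and 2 lower (median 1.33). The partner tested only in the fits with eWAT met the read minimum only with the eWAT libraries. Nid1 and Nid2, which tie laminin to type IV collagen, had log2 fold changes of 2.88 ± 0.13 and 3.33 ± 0.16 in iWAT and 3.16 ± 0.14 and 3.43 ± 0.16 in eWAT, and Hspg2, the perlecan gene, had 1.30 ± 0.17 and 1.44 ± 0.17, all called. Lama2, a laminin chain of muscle and nerve, was lower in iWAT than in eWAT (-1.26 ± 0.27, adjusted p = 0.0020). Between the white depots 3 of 15 were higher in iWAT and 2 lower (median -0.16).

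The lists of binding and breakdown genes were mixed. Of 7 fibril-binding proteoglycans tested, 3 were higher and 3 lower in iWAT than in BAT (median -0.44), and 4 were higher and 1 lower in eWAT (median 0.83). Prelp and Bgn, both small proteoglycans, were higher in iWAT (1.27 ± 0.16 and 1.44 ± 0.19) and in eWAT (1.33 ± 0.16 and 0.83 ± 0.23), whereas Lum was lower (-2.37 ± 0.22 and -0.89 ± 0.31), all called. Fmod was lower in iWAT than in eWAT (-3.01 ± 0.36), as were 5 of the 7 in all (median -1.07). Of the collagen degradation genes, 3 of 10 tested were higher and 2 lower in iWAT than in BAT (median 0.23), and 7 of 12 were higher and 2 lower in eWAT (median 1.33). Those tested only in the fits with eWAT, Timp1 among them, met the read minimum only with the eWAT libraries, so their values are a description. Timp4, an inhibitor of matrix proteases, was higher in both (2.00 ± 0.26 and 2.67 ± 0.26). Timp3 was not called (0.08 ± 0.28, adjusted p = 0.81, and 0.73 ± 0.32, adjusted p = 0.0503), and Timp1 was higher in eWAT (3.98 ± 0.80). Ctsk, a collagen-cutting cathepsin, was higher in eWAT (2.90 ± 0.52), with 4.72 to 53.7, highest in replicate 15. Between the white depots 1 of 12 was higher in iWAT and 5 were lower (median -0.75). Of 7 collagen receptors tested, 3 were higher and 2 lower in iWAT than in BAT (median 0.12) and 4 were higher and 1 lower in eWAT (median 1.05), near the share of all rows. Itgb1, the shared integrin chain (0.82 ± 0.09 and 1.05 ± 0.10), and Ddr1, a receptor kinase (2.23 ± 0.20 and 2.19 ± 0.19), were higher in both. Between the white depots 2 were lower in iWAT and 5 were not called (median -0.0076). Lair1, a receptor of immune cells, was among the lower (-3.38 ± 0.81), with up to 6.11 in the eWAT library of high macrophage markers.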

How the data were processed

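Members, classes, gene lists and alternatives were chosen with earlier results of these data known. The submitters' processing notes name HISAT2 2.1.0 and cutadapt 1.16 with mm9, and the methods name the Genomatix Genome Analyzer. The annotation and the counting rule were not given in the sources used here. The authors deposited for each row a read count, which is not normalized, and an RPKM, which was checked to be that read count divided by the row length and 1 total per library. These totals (22929576 to 34512470 reads) served as library sizes. Reads were not collapsed to molecules, so counts of few reads carry counting error beside the spread between libraries.

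Depots were compared with edgeR 4.0.16 (glmQLFit and glmQLFTest, TMM) in R 4.3.3 on rows that reached 10 reads in 6 or more samples, with Benjamini-Hochberg adjustment over all rows. The fit of iWAT against BAT used 12 samples and all 19733 merged rows tested, and the others used 18 samples and 18383 symbols with 1 row each. The standard error was taken from the F statistic. The fitting script was first tested on simulated counts. Alternatives were DESeq2 1.42.0, limma 3.58.1 on log2(RPKM + 0.1) or log2(RPKM + 1), other filters, rows, lengths and scalings, the title number as a block, and fits without single samples. The length used in all samples and the upstream row of Col1a1 were added after the data were seen.

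Named were members with a mean deposited RPKM of at least 1 in some depot, with ranges for the 3 of highest mean per class and the 2 largest changes per direction and comparison. The minor type IV chains, Col6a6, Col7a1, Col8a1, Col11a2, Col13a1, Col14a1, Col20a1, Col23a1 and Col28a1 were named after their values were seen. The pathway lists comprised collagen folding and modification (18 genes, of which Mia3 was not found by symbol), propeptide removal and cross-linking (14), fibril-binding proteoglycans (8), collagen degradation (13), collagen receptors (9) and basement membrane partners (15). Of each list the 2 genes of highest level and the largest change per comparison were named. Promoter sequences were read from RefSeq and the Col4a4 to Col4a3 gap from NCBIM37 (mm9).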

Additional observations from a re-analysis of the deposited data

Results flagged for a closer look

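Among 94 measures of 6 samples each, chance alone would be expected to set 1 sample apart in about 4.7. A single value stood apart from the rest of its depot: the ratio of Col1a1 to Col1a2 was 2.74 in iWAT replicate 15, whereas the other 5 iWAT samples had ratios between 1.22 and 1.74. This ratio did not overlap with eWAT or BAT with or without that sample.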

How the results depend on the processing

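Of the values per gene and setting, 1681 kept their direction and their side of the threshold, 68 came to pass it, 61 came to miss it and 33 turned. The numbers in the sample titles were tested as a block. Same-numbered samples did not deviate together (mean correlation of deviations 0.034 for iWAT and BAT, -0.032 for eWAT and BAT, and -0.097 for iWAT and eWAT), and with the replicate block 24, 22 and 11 members were called in these comparisons in place of 25, 25 and 13. The calls lost with it were Col6a6 and Col14a1, then Col4a5, Col14a1 and Col28a1, then Col6a6 and Col27a1, and Col1a2 was gained in the first. Fits on rows shared by both kinds of file gave no value, since Col10a1 was the only member with such a row and had too few reads.

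With a minimum of 50 reads, 5 members were called lower in iWAT and 4 lower in eWAT than in BAT, since fewer members were tested. With limma at either pseudocount, which uses the deposited RPKM with unlike row lengths, 5 were lower in eWAT than in BAT, and 2 were higher and 15 lower in iWAT than in eWAT. Summing all eWAT rows of a symbol gave 22 calls between iWAT and eWAT among 31 members tested, 17 of them lower in iWAT. A log2 fold change of at least 1 was met by 7, of which 2 were higher and 5 lower. A minimum mean RPKM of 0.1 was passed by 21 members in iWAT, by 24 in eWAT and by 28 in BAT, and a minimum of 5 by 5 in BAT. With 1 length in every sample the summed RPKM was 182 (fibrillar) and 205 (other) in iWAT and 52.6 and 36.2 in BAT. With the eWAT transcript of highest mean RPKM the sums in eWAT were 313 (fibrillar), 345 (basement membrane) and 378 (other), and RPKM rescaled by TMM factors gave 39.4 (fibrillar) and 30.0 (other) in BAT. The cause of these changes was not tested beyond what the settings themselves alter.

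Without 1 replicate, between 22 and 26 members were called for iWAT against BAT (14 to 16 higher, 8 to 12 lower), 22 to 25 for eWAT against BAT (16 to 17 higher, 5 to 9 lower, with 5 lower without BAT replicate 6 or 13) and 11 to 15 for iWAT against eWAT (3 to 6 higher, 7 to 10 lower). In eWAT, between 16 and 17 members then reached a mean RPKM of 1, against 15 with all samples.

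Most of the log2 fold changes that turned were not called, but some were called in the turned direction. For eWAT against BAT, Col6a6 turned to 1.21 and 0.53 with limma (pseudocounts 0.1 and 1) and to 0.70 with row length in the offset, all called. It was 0.20 without TMM and 0.041 with summed rows, neither called. Col8a1 turned to 0.39 and 0.20 with limma, Col4a3 to 0.0029 with limma at a pseudocount of 1, and with summed rows Col4a5 to 0.31 and Col23a1 to -0.016. For iWAT against eWAT, Col3a1 turned to -0.15 and Col4a1 to -0.11 with limma at both pseudocounts. With row length in the offset Col4a2 was 0.19, Col18a1 0.12, Col14a1 0.018 and Col23a1 0.32. With summed rows Col3a1 was -0.64, Col4a1 -0.074, Col4a2 0.22, Col5a1 0.16, Col5a2 -0.49, Col5a3 1.08, Col6a3 -0.86, Col7a1 0.23, Col8a1 0.35, Col23a1 0.59 and Col28a1 0.0065. Of these Col3a1, Col5a2, Col5a3, Col6a3 and Col23a1 were called in the turned direction. Without 1 replicate, Col7a1 lay between -0.75 and 0.014 (highest without eWAT replicate 14), Col14a1 between -0.60 and 0.094 (highest without eWAT replicate 15) and Col4a1 between -0.0036 (without iWAT replicate 15) and 0.11. Without eWAT replicates 14 and 15, Col7a1 was 0.38.

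Depth limits the scarce chains: 13 members could not be tested, and Col4a6 rested on 4 reads in iWAT.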
